A study of Mus musculus with 3 samples.

Results

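The genes described here belong to 14 multicopy or germline families of the mouse X chromosome outside the Rhox cluster. They were chosen by symbol alone: every protein-coding gene of the RefSeq table whose symbol starts with Magea, Mageb, Maged, Magee, Mageh, Btbd35f, Xlr, Slx, Ssx, Spin2, Cldn34, Fthl17 or Tgif2lx, plus Trap1a. This gave 99 of 966 protein-coding genes of the chromosome (1256 genes with the long noncoding ones). DNA carrying LSD1 (Kdm1a), which demethylates histones, was precipitated with an antibody and read by allele in 3 libraries, 1 per group. MEF are mouse embryonic fibroblasts at day 0. LowK are fibroblasts that received the reprogramming vector SeVdp(fKOSMaB) and were taken at day 20 without Shield1. MidK are the same cells at day 20 with Shield1 at 30 nM, a small molecule that protects proteins with a fused destabilising domain from degradation. Both reprogramming groups carry the vector and share their time point. The labels give no genotype, sex or clone of the cells, and not the strain of the allele called variant. The cell types were not checked against marker expression, since the files hold chromatin reads.

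Most of these families are expressed mainly in germ cells and are silent in most somatic tissues. Type I MAGE genes (Magea, Mageb) are germline-restricted and known from tumours, whereas type II MAGE genes (Maged, Magee, Mageh) are expressed in many tissues, and MAGE proteins bind RING ubiquitin ligases. Many of the families arose by repeated duplication, so their copies are similar in sequence. LSD1 removes methyl groups from histone tails and works in repressor complexes.

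Sequence identity decides which copies a short read can be assigned to, so the starts of the genes that the results turn on are printed first, from RefSeq (GRCm38.p6, the build called mm10). Each run covers 250 bases before and 50 after the annotated start, 5′ to 3′ on the strand of the gene. The start of Cldn34c1, a claudin-like gene (chrX:123103273-123103572, plus strand), held the most listed reads of any member start. It is shown once per library, with the bases listed in that library in capitals, 20 in MEF, 13 in LowK and 14 in MidK.
Cldn34c1 in MEF: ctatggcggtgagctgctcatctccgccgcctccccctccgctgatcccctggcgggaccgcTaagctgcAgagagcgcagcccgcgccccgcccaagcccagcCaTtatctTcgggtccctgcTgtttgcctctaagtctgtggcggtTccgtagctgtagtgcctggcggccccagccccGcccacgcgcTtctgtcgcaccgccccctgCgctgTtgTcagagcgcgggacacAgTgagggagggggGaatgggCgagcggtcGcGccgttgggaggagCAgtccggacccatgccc
Cldn34c1 in LowK: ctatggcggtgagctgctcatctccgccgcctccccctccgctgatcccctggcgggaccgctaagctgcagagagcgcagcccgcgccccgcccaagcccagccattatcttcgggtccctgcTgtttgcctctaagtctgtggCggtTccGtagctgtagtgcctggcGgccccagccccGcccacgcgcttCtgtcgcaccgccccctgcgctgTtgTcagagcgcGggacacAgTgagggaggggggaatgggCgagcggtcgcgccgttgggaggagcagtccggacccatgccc
Cldn34c1 in MidK: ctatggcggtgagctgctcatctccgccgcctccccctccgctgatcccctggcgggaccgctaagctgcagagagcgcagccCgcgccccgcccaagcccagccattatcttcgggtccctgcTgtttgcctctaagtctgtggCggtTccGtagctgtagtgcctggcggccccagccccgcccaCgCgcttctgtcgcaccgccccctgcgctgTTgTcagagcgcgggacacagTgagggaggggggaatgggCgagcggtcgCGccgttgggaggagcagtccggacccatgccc
Of these capitals, 6 positions were listed in all 3 libraries.

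The starts of Btbd35f3 (chrX:4037424-4037723, plus strand) and Btbd35f28 (chrX:4196326-4196625, plus strand) show how alike copies of 1 family are. They were 98.3% identical, and capitals mark the 5 bases at which they differ. Btbd35f3 and Btbd35f4 had identical starts.
Btbd35f3: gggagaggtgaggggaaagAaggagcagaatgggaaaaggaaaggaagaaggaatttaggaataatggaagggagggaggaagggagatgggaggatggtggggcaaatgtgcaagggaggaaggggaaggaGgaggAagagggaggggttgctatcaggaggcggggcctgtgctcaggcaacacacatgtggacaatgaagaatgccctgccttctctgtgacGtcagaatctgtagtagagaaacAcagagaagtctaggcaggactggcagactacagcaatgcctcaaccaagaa
Btbd35f28: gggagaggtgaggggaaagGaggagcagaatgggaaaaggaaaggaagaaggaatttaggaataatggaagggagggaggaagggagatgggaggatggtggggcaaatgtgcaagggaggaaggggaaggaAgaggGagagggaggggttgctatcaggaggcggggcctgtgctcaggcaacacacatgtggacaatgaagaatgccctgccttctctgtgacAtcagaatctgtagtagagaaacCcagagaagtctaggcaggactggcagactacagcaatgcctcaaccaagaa

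Ssxb8, an SSX gene (chrX:8690795-8691094, minus strand), and Trap1a, which encodes the tumour rejection antigen P1A (chrX:139333433-139333732, plus strand), are shown because they were called in opposite directions in MidK over MEF, relative to the median gene. Capitals mark bases listed in any library, 5 in Ssxb8 and 2 in Trap1a.
Ssxb8: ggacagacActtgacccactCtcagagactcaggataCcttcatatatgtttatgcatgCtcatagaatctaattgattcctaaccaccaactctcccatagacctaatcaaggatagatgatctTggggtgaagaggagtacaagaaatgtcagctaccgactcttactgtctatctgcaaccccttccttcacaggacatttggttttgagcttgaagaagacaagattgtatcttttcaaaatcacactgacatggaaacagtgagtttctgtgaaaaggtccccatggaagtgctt
Trap1a: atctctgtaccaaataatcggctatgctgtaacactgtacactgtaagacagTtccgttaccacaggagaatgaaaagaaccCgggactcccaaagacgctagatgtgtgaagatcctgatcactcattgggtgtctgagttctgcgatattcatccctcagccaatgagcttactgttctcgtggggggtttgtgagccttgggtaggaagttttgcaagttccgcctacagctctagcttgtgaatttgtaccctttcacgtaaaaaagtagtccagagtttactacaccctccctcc

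A listed site is a single-base position at which the library had at least 1 read with the variant base, and its reads are those with the B6 or the variant base, B6 being the name the file headers give the other allele. The lists held 411952 sites with 883097 reads in MEF, 186844 with 295254 in LowK and 119257 with 203350 in MidK. A site thus had 2.14, 1.58 and 1.71 reads on average. Each gene was counted over its body plus 5 kb on both sides, called its window. The windows of the 99 genes cover 2177.3 kb. They held 13370 MEF, 4768 LowK and 4788 MidK reads, or 1.51%, 1.61% and 2.35% of each library's reads. Without a stretch of 543 bp in Cldn34d, described below, they held 9624, 3169 and 1698 reads. The higher share in MidK rested on that stretch. No input library was used here, so reads are coverage and not enrichment. A read from 1 copy of a family can be placed in another, so every value for a near-identical copy is uncertain.

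The families were sparsely listed. The median window held 1.34 sites per kb in MEF, 0.455 in LowK and 0.168 in MidK, against 2.90, 1.36 and 0.685 for the other 867 protein-coding genes. Windows with no site numbered 20, 30 and 33 of 99 (20.2%, 30.3% and 33.3%), against 5.65%, 6.92% and 7.61% of the others. In all 3 libraries together, 14 of the 99 genes had no site (14.1%), 12 of them Btbd35f and 2 Spin2 genes, against 41 of 867 (4.73%). The families were thus listed at lower density than other genes in each library.

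Density differed widely between families. Btbd35f, BTB-domain genes, had 29 members and 0.257 sites per kb in MEF, 0.0954 in LowK and 0.0549 in MidK over all their windows. Of these 29 genes, 16, 23 and 20 had no site. The pair Slx and Slxl1, spermatid genes, held 5, 4 and 3 reads in all. Spin2 genes, spindlin-like, held 104, 37 and 17 reads, of which Spin2c alone held 80, 20 and 16. These 3 groups had the fewest sites per kb of all families in each library, and most of their members held few or no reads. Btbd35f still held 374 reads in MEF, with 121 in Btbd35f21 and 120 in Btbd35f25.

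At the other end stood the Tgif2lx pair, homeobox genes, with 4.31 sites per kb in MEF, 1.27 in LowK and 1.18 in MidK. Magea genes had 3.24, 1.48 and 0.473, Ssx genes 2.50, 1.10 and 0.522, and Mageb genes 2.46, 1.03 and 0.628 sites per kb. Xlr genes, related to a synaptonemal complex protein, had 1.51, 0.688 and 0.288. MEF, the deepest library, had the highest density in each of these 5 families. Among Mageb genes, Mageb18 (chrX:92118879-92599572) held 2549 of the 3180 MEF reads, 797 of the 940 LowK reads and 494 of the 591 MidK reads, over the longest window of the set.

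**Figure D1:**
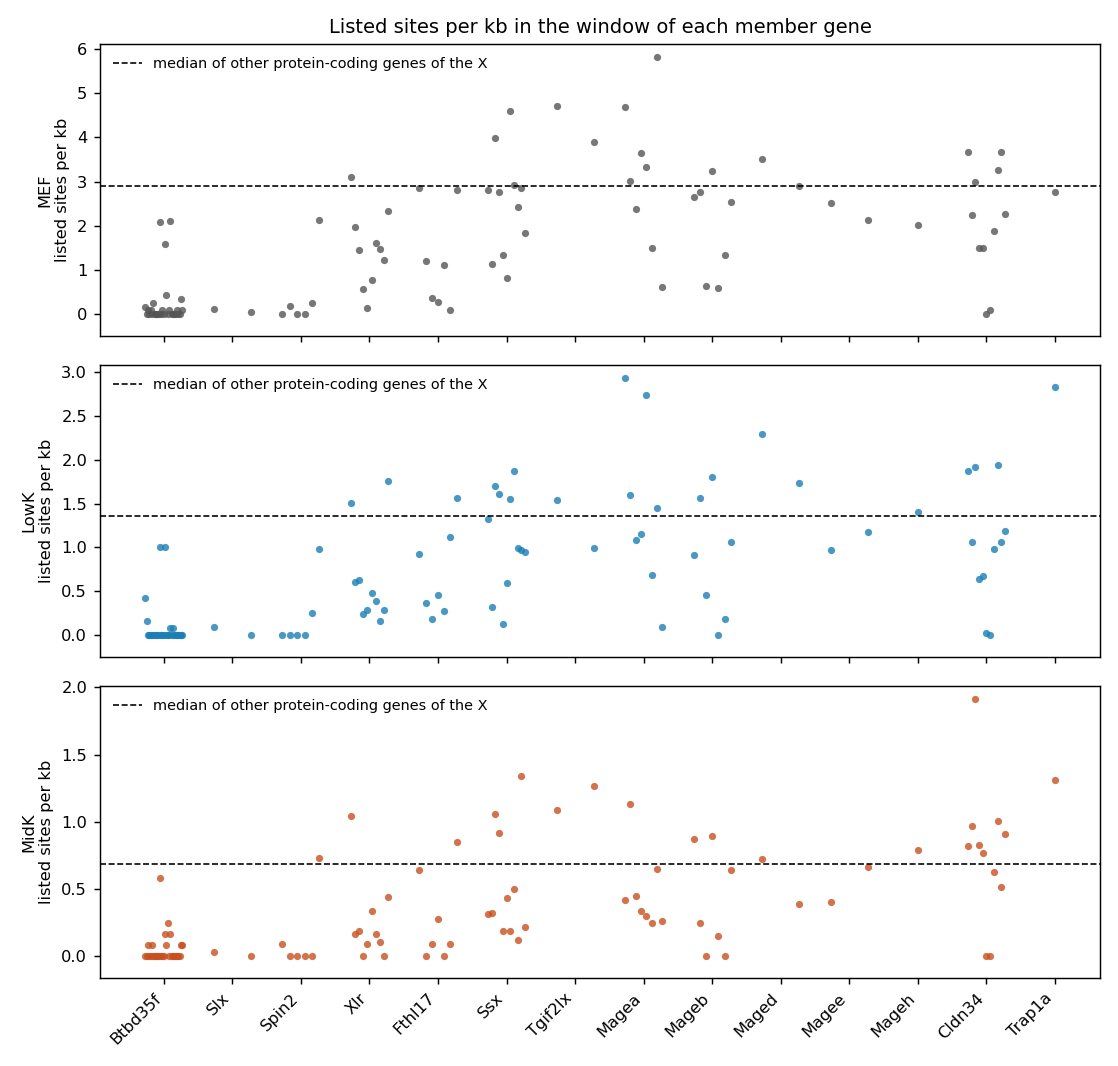
Listed sites per kb (vertical axis, a scale of its own per library) in the window of each of the 99 genes, 1 point per gene, grouped by family along the horizontal axis. Dashed lines mark the median of the other protein-coding genes of the X, at 2.90 for MEF, 1.36 for LowK and 0.685 for MidK. Most Btbd35f points lie at or near 0.

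Density was lower among copies with near-identical starts than among those with distinct ones. The RefSeq promoter table matched 69 of the 99 members, and 67 of these had another member of the same family to be aligned with. The 23 genes whose start was at least 90% identical to that of another member had a median of 0.423 sites per kb in MEF, 0.369 in LowK and 0.0932 in MidK. For the 15 genes at 70% to 90% the medians were 1.24, 0.284 and 0.186, and for the 29 under 70% they were 2.39, 1.08 and 0.647. Spearman's rho between identity and density over the 67 genes was -0.39 in MEF, -0.46 in LowK and -0.43 in MidK. In LowK the middle class was the lowest. The correlations are a description, since members of a family share sequence and libraries share positions. Starts ranged from identical (Fthl17b and Fthl17c) over 93.5% (Xlr4a and Xlr4b), 92.1% (Ssx9 and Ssxb5) and 85.4% (Magea3 and Magea1) to 45.7% (Maged1 and Maged2).

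Starts themselves held few reads. Within 1 kb on both sides of the start, 24 of 69 members in MEF, 35 in LowK and 47 in MidK had no site (34.8%, 50.7% and 68.1%), against 13.0%, 18.9% and 39.6% of 748 other genes. The median member had 5, 0 and 0 reads there, the median other gene 12, 7 and 1. Ssxb8 had 73 reads around its start in MEF, 25 in LowK and 0 in MidK. Magea5 had 73, 9 and 2, and Magea8 15, 38 and 0. Maged1, which encodes a partner of the neurotrophin receptor, had 21, 44 and 1, and Trap1a had 4, 7 and 5. MidK had no read at the starts of Ssxb8 and Magea8 and 1 at that of Maged1, as counted and not scaled for depth. It was the library with the fewest reads, and most member starts had no site in it. The dinucleotide CG, counted on the printed strand (its reverse complement is itself), occurred in 91.3% of member promoters with a median of 2, and in 92.6% of 1046 promoters of the X with a median of 7.

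The start of Cldn34c1 was the exception. MEF had 104 reads there at 35 sites, LowK 172 at 28 and MidK 123 at 30, with at most 10, 17 and 10 reads at any position. Of the 748 other protein-coding genes of the chromosome with a promoter entry, only Asmt, a gene of melatonin synthesis, held more reads around its start in each library. The printed Cldn34c1 promoter has 28 CG dinucleotides and a GC content of 69.7%, and 5.35% of the X promoters have as many CG or more. These start reads were 42.8% of the reads of the Cldn34c1 window in MEF, 93.5% in LowK and 86.6% in MidK. Elsewhere in that window there were 139, 12 and 19 reads.

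Reads by gene were compared between libraries relative to the median gene of the chromosome. Read numbers are printed as counted, and only the ratios allow for the depth of the libraries. A gene was tested if at least 30 reads fell in 1 of both libraries, and called higher or lower if the difference was at least 2-fold and the exact 95% Poisson intervals lay apart. With 1 library per group there is no replicate check and no p-value, and the intervals hold counting error only. They are also too narrow, because 1 read can cover several sites and is counted at each. Of the start reads of Cldn34c1, LowK held 4.66 times the share of MEF (95% interval 3.63 to 6) and MidK 6.98 times (5.33 to 9.15), while MidK over LowK was 1.53 (1.20 to 1.94). In the rest of its window the ratios were 0.243 (0.123 to 0.438), 0.806 (0.471 to 1.31) and 3.38 (1.56 to 7.65). The ratios above 1 over MEF were those of the start, and those of the remainder were not above 1. This split at 1 kb was applied to a gene chosen for its high start reads, so these ratios are descriptive.

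**Figure D2:**
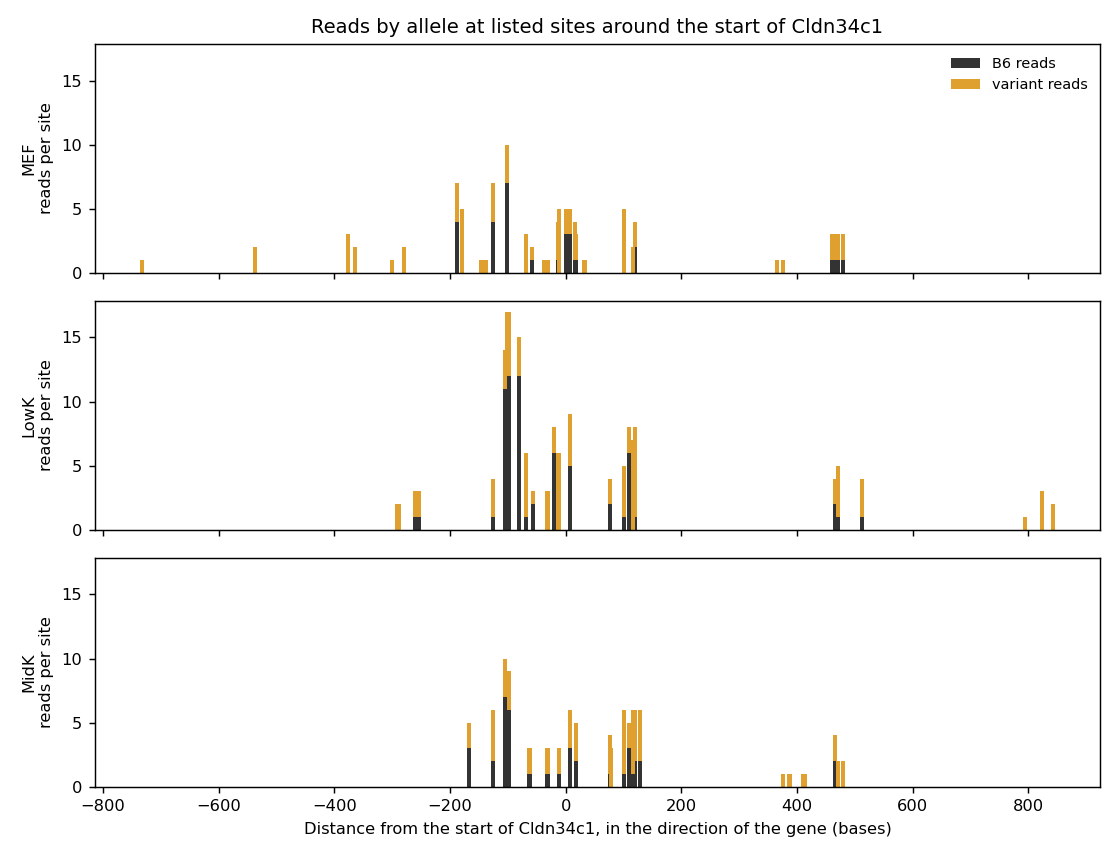
Reads at each listed site (vertical axis) by distance from the start of Cldn34c1 in bases (horizontal axis), 1 panel per library, with B6 reads in black and variant reads in orange stacked. Reads gather close to the start in all 3 libraries, with no position above 17 reads.

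The first comparison set LowK, at day 20 without Shield1, against MEF. Of 56 tested members, 2 were called higher (7.31% of all 1080 tested genes were) and 10 lower (6.30% of all tested genes). All 56 had at least 30 reads in MEF, the deepest library, so members with few MEF reads were not tested. At a minimum of 10 reads, 5 of 68 were higher and 11 lower, beside 7.39% and 6.32% of 1123 genes. The median log2 ratio of the 56 tested members was -0.06, against 0 over all genes. The 2 higher members were Cldn34c1 and Trap1a. Cldn34c1 had 243 reads in its window in MEF, 184 in LowK and 142 in MidK, a LowK over MEF ratio of 2.13 (1.75 to 2.59). Trap1a (chrX:139333683-139338169), which lies within the noncoding gene Platr21, had 72, 54 and 55 reads, a ratio of 2.11 (1.46 to 3.05). The Trap1a call was lost in 6 of 10 alternative settings, and with sites thinned to 1 in 300 bp, their reads kept, Cldn34c1 was at -0.03 on the log2 scale.

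The 10 lower members came from 7 families, none with more than 3. In Ssx, of 10 tested members 3 were lower: Ssxb6 with 59 reads in MEF and 4 in LowK, Ssxb9 with 77 and 7, and Ssxb7 with 199 and 31. SSX genes encode nuclear repressors of germ cells. In Btbd35f, 2 of 4 tested were lower: Btbd35f21 fell from 121 to 4 reads (ratio 0.0931, 0.0250 to 0.245), and Btbd35f22 from 31 to 0, for which the 95% interval of the ratio reaches up to 0.356. Tgif2lx1 fell from 152 to 15 reads (0.278, 0.152 to 0.473), Magea5 from 388 to 40 (0.290, 0.204 to 0.403), Xlr4c from 74 to 5 and Mageb1 from 42 to 2. Cldn34b1, the remaining one, had 346 and 48 reads (0.391, 0.283 to 0.529). Neighbours in the same family were not called: Tgif2lx2 had 211 and 46 reads (0.614, 0.436 to 0.848), and Magea8 203 and 115 (1.60, 1.26 to 2.02). With sites thinned to 1 in 300 bp, 1 member was called higher and 2 lower of 38, where 3.50% and 1.49% of all 942 tested genes were.

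The second comparison was of MidK, which received Shield1, with the same MEF library. Of 56 tested members, 5 were called higher (9.63% of all 1080 tested genes) and 14 lower (9.72%), and the median log2 ratio was -0.80, against 0 over all genes. Here too, all 56 had at least 30 reads in MEF. At a minimum of 10 reads, 6 of 65 were higher and 14 lower, beside 9.90% and 9.37% of 1121 genes. Scaled to library totals in place of the median gene, which shifts all ratios by -0.44, the members split into 4 higher and 27 lower, and all genes into 48 and 230 in place of 104 and 105. After thinning to 1 site in 300 bp, 3 members were higher and 2 lower of 38, where 5% and 1.06% of all 940 tested genes were. MEF stands in both comparisons, so they are not independent.

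The falls in MidK were spread over Xlr, Ssx, Magea, Mageb, Maged and Btbd35f. Of 9 tested Xlr genes 4 were lower: Xlr3c with 70 MEF, 17 LowK and 0 MidK reads (ratio up to 0.319), Xlr4c with 74, 5 and 3, Xlr4a with 89, 34 and 5 and Xlr5c with 158, 103 and 13. Under other settings the Xlr4c call did not hold in 5 of 9 and the Xlr5c call in 6 of 10. Xlr, the gene the family is named after, was not called, with 216, 74 and 43 reads (1.17, 0.826 to 1.64). Of 10 tested Ssx genes 3 were lower: Ssxb7 with 199, 31 and 4 reads, Ssx9 with 91, 32 and 2, and Ssxb8 with 143, 53 and 11. Ssxb1, the Ssx gene with the most reads, had 244, 92 and 24 and a ratio of 0.580 (0.365 to 0.884), short of 2-fold.

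Type I MAGE genes split in MidK. Of 7 tested Magea genes, Magea3 (189, 65 and 10 reads), Magea4 (123, 56 and 7) and Magea8 (203, 115 and 14) fell, at ratios of 0.312, 0.336 and 0.407. Under other settings these calls did not hold in 3 of 10, 5 of 10 and 3 of 8. Magea10, with 79, 36 and 31 reads, was 2.32-fold higher (1.48 to 3.55), and over the gene body alone it was at -0.25 on the log2 scale. Magea5 had 388, 40 and 36 reads and 0.547 (0.378 to 0.771), which was no call. Of 5 tested Mageb genes, Mageb1 (42, 2 and 0 reads, ratio up to 0.542) and Mageb4 (133, 34 and 4, ratio 0.177) fell, while Mageb18 was at 1.14 (1.04 to 1.26). Over all windows of a family together, Magea was at 0.598 (0.492 to 0.722), Ssx at 0.638 (0.530 to 0.764), Xlr at 0.654 (0.519 to 0.816) and Mageb at 1.10 (1.003 to 1.20).

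Of 5 tested type II MAGE genes, 1 was called in MidK over MEF. Maged1 had 166, 73 and 14 reads in the order MEF, LowK, MidK and was called lower in MidK (0.498, 0.266 to 0.859), and Maged2 had 98, 47 and 9 (0.542, 0.241 to 1.07). Together they were at 0.514 (0.320 to 0.788). The Maged1 call did not hold in 5 of 11 other settings. Magee1 had 72, 35 and 18 reads, Magee2 67, 24 and 11 and Mageh1 50, 30 and 13, with ratios of 1.48, 0.969 and 1.53 in MidK over MEF and no call. Btbd35f25, the Btbd35f gene with the most reads, had 120 in MEF, 49 in LowK and 2 in MidK, a ratio of 0.0983 (0.0118 to 0.363). With thinned sites each counted once instead of by their reads, no member was called in either direction, of 9 that could be tested, and Maged1, Xlr5c and Btbd35f25 lay above 0. Of all 556 genes tested in that way, 0 were called higher and 0 lower.

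The 5 members called higher in MidK were Magea10, Trap1a and 3 Cldn34 genes. Trap1a was 4.51-fold higher (3.11 to 6.49), and the 300 bp with the most of its reads held 25% of them in MEF, 18.5% in LowK and 56.4% in MidK. Cldn34-ps had 69, 24 and 49 reads (4.19-fold, 2.84 to 6.13), and Cldn34c1 was at 3.45 (2.78 to 4.26). Cldn34d was at 4.75 (4.53 to 4.99). The other 6 of 9 tested Cldn34 genes were not called.

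**Figure D3:**
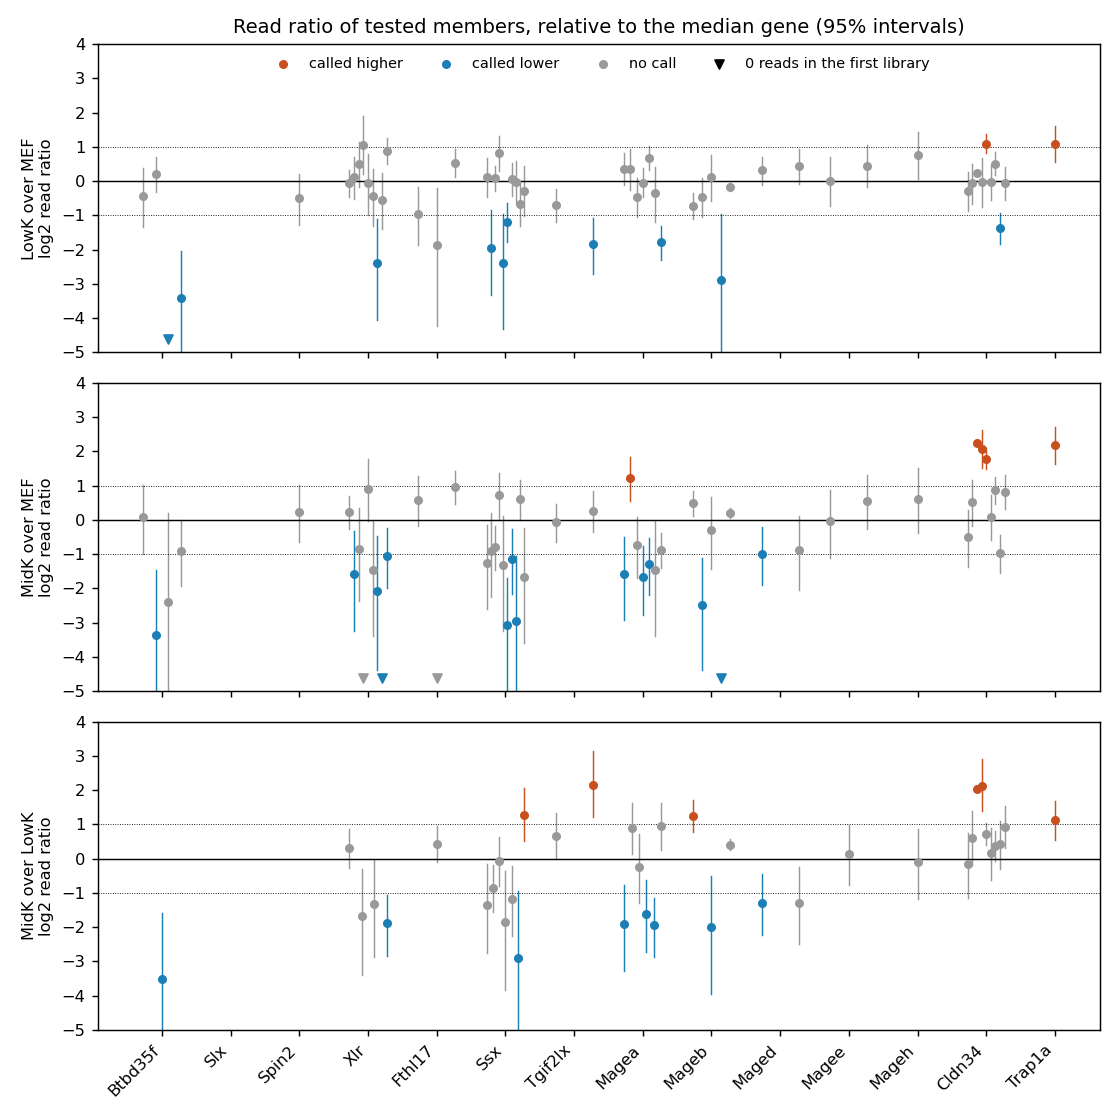
Log2 read ratio relative to the median gene (vertical axis) with 95% counting intervals for each tested member, grouped by family along the horizontal axis, 1 panel per comparison. Orange points were called higher, blue lower and grey neither, triangles mark members with 0 reads in the first library of the pair, and dotted lines mark 2-fold. In MidK over MEF, 14 of 56 members lie in the lower calls and 5 in the higher.

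Cldn34d (chrX:76582610-76602924, minus strand) held nearly all of its reads in 1 short stretch. It had 3885 reads in its window in MEF, 1634 in LowK and 3131 in MidK. Of these, 3746, 1599 and 3090 (96.4%, 97.9% and 98.7%) lay in the 543 bp of chrX:76598582-76599124, from 3800 to 4342 bases into the gene. The ends of this stretch are the outermost sites of the window with more than 20 reads in any library. Its depth against the remainder of the window follows in part from that choice. The stretch was read 121, 43.2 and 96.6 times per site, against 2.32, 1.67 and 1.58 in the remainder of the window. By the choice of its ends, every Cldn34d site with more than 20 reads lay in the stretch, 27 in MEF, 29 in LowK and 27 in MidK. No other member window had such a site, and the whole chromosome had 68, 78 and 125. At 29 positions the stretch had the same variant base in all 3 libraries.

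Within the stretch B6 reads made up 49.4% of the MEF reads (47.8% to 51.0%, exact 95% Clopper-Pearson), 57.3% of the LowK reads (54.9% to 59.8%) and 51.7% of the MidK reads (49.9% to 53.5%). Reads with neither the B6 nor the variant base made up a further 13.3%, 11.6% and 11.0% of its depth. MidK over MEF was 4.87 in the stretch (4.64 to 5.11) and 1.74 (1.20 to 2.48) outside it, and LowK over MEF was 1.20 and 0.709 (0.475 to 1.03). At sites listed in all 3 libraries, where ratios are relative to the median of 17 tested genes, Cldn34d was at -0.35 on the log2 scale in MidK over MEF, no call. In LowK over MEF it was at -1.75 there and called lower, against 0.24 and no call over all sites. The whole Cldn34 family was at 3.93 in MidK over MEF and at 1.68 (1.51 to 1.87) without the stretch.

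**Figure D4:**
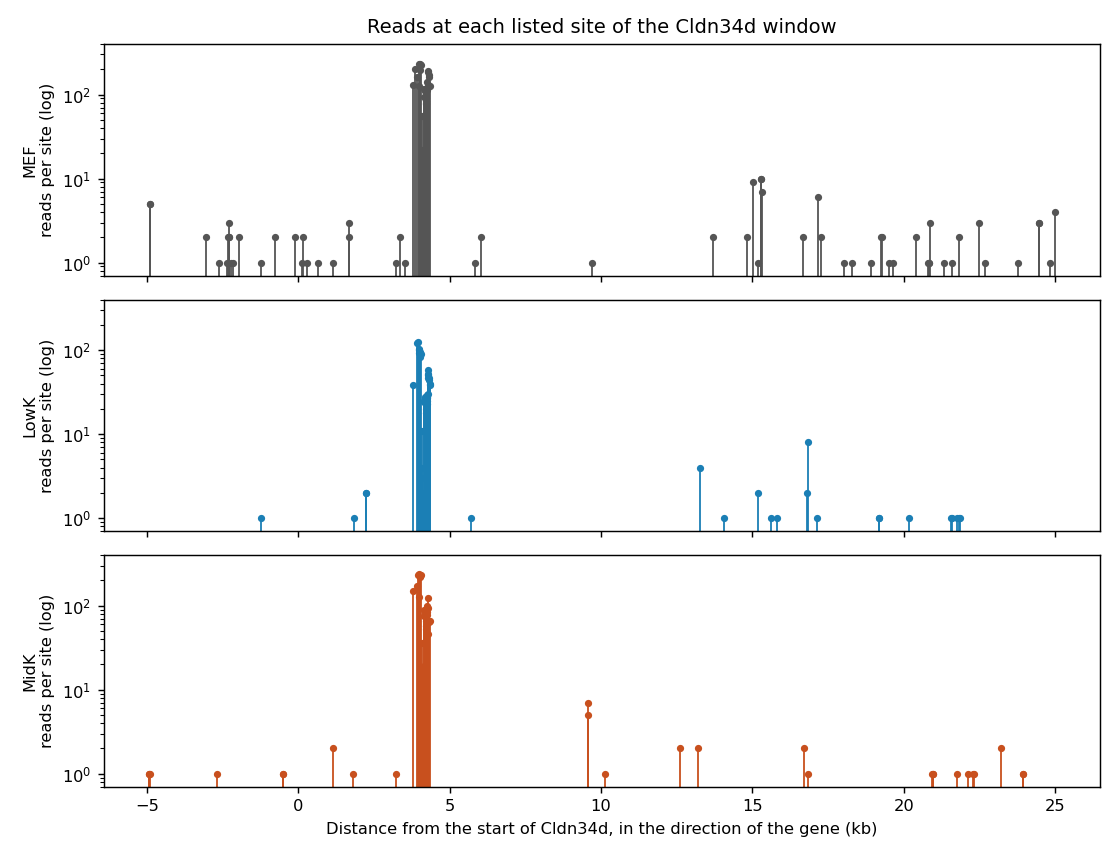
Reads at each listed site of the Cldn34d window (vertical log axis) by distance from the gene start in kb, in the direction of the gene (horizontal axis), 1 panel per library. The stretch near 4 kb reaches over 100 reads per site in each library, while sites elsewhere hold at most 10.

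The third comparison was between the reprogramming libraries, MidK over LowK, which differ by Shield1. Of 38 tested members, 6 were called higher (8.72% of all 906 tested genes) and 8 lower (11.9%), with a median log2 ratio of 0.03. With library totals, a shift of -0.56, the members split into 3 higher and 15 lower, and all genes into 24 and 264 in place of 79 and 108. After the same thinning, 1 member was higher and 1 lower of 10, where 3.89% and 3.71% of all 566 tested genes were. LowK and MidK each stand in a comparison above as well.

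Tgif2lx1 was 4.42-fold higher in MidK (2.31 to 8.81), with 15 reads in LowK and 31 in MidK, after 152 in MEF. Its neighbour Tgif2lx2 had 46 and 34 reads (1.58, 0.983 to 2.52). Cldn34-ps was 4.36-fold higher (2.63 to 7.44), Cldn34d 4.10-fold (3.86 to 4.35) and Trap1a 2.18-fold (1.47 to 3.23). Ssxb5 had 28 and 32 reads (2.44, 1.42 to 4.21) and Mageb16 73 and 81 (2.37, 1.71 to 3.30). With library totals, Ssxb5, Mageb16 and Trap1a were no longer called. Under other settings the Tgif2lx1 call did not hold in 4 of 9, the Cldn34-ps call in 4 of 10 and the Cldn34d call in 1 of 11.

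The 8 lower members were 3 Magea genes and 1 each of Btbd35f, Ssx, Mageb, Xlr and Maged. Btbd35f25 was at 0.0872 (0.0103 to 0.332), Ssx9 at 0.134 (0.0155 to 0.524) and Mageb4 at 0.251 (0.0648 to 0.705). These 3 had 2, 2 and 4 reads in MidK, against 49, 32 and 34 in LowK. Magea8 was at 0.260 (0.138 to 0.455), Magea4 at 0.267 (0.103 to 0.588) and Magea3 at 0.329 (0.151 to 0.644). Xlr5c was at 0.270 (0.139 to 0.482) and Maged1 at 0.410 (0.214 to 0.733). Magea4 turned to 1.46 on the log2 scale when only sites in a single gene window were counted. Under other settings the Btbd35f25 call did not hold in 4 of 8, Ssx9 in 4 of 9 and Mageb4 in 3 of 8. For Magea8 it was 2 of 8, Magea4 5 of 10, Magea3 4 of 10, Xlr5c 2 of 10 and Maged1 5 of 11.

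Fthl17 genes, ferritin-like genes of the germline, gave no call among the 3 of 7 that could be tested over MEF, nor in the 1 that could be tested in MidK over LowK. Fthl17a, with the most reads, had 153 in MEF, 79 in LowK and 50 in MidK, at ratios of 1.45 (1.09 to 1.92) and 1.93 (1.37 to 2.67) over MEF. Fthl17f had 3, 23 and 2 reads, too few for the rule, and its 23 LowK reads lay within 1 kb of the start. For Slx and Slxl1 no comparison could be tested, and for Spin2 only Spin2c could, at 0.704 (0.408 to 1.16) and 1.18 (0.644 to 2.04) over MEF.

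Single-copy germline genes of the X were set beside the families, from a list of 20 of which 19 were found. In LowK over MEF, 1 of 18 tested was called higher (Luzp4) and 3 lower (Pramel3, Tex13a and the ubiquitin protease gene Usp26), with a median log2 ratio of 0.18, where 7.31% and 6.30% of all tested genes were called. In MidK over MEF, 3 were higher (Fmr1nb, Tex13a and Taf7l, a germ-cell form of a general transcription factor subunit) and 2 lower (Pramel3 and the RNA export gene Nxf2), with a median of 0.35, beside 9.63% and 9.72% of all genes. The median of the families was -0.80. In MidK over LowK, 2 of 14 were higher (Usp26 and Fmr1nb) and 2 lower (Nxf2 and Tex13b), with a median of 0.03, beside 8.72% and 11.9% of all genes.

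Of the reads by allele, the B6 base made up 26.8% in the member windows in MEF, 29.2% in LowK and 39.7% in MidK, against 14.0%, 9.53% and 18.4% in the rest of the chromosome. Without the Cldn34d stretch the member shares were 18.0%, 14.9% and 18.0%. Because a site is listed only with a variant read, these shares are pushed downward, and more so where a site has few reads. The highest B6 share possible is therefore given beside the shares of a family, and the intervals do not allow for it. Over all member windows it was 69.9% in MEF, 61.7% in LowK and 78.8% in MidK. Ssx windows had 20.4% B6 reads in MEF (18.2% to 22.8%) and 15.9% in LowK (12.3% to 20.0%). In MidK it was 5 of 133 Ssx reads, or 3.76% (1.23% to 8.56%). The listing allowed at most 62.2%, 46.0% and 27.1% in these windows, so the libraries are not on 1 scale. Btbd35f had 24.6% (20.3% to 29.3%), 30.5% (20.8% to 41.6%) and 5% (0.611% to 16.9%), of at most 76.2%, 59.8% and 52.5%. These came from different genes: Btbd35f25 gave 43 of the 92 B6 reads in MEF and 22 of the 25 in LowK, but had only 2 reads in MidK. Maged had 17.4% in MEF and 16.7% in LowK, of at most 58.3% and 42.5%. In MidK it had 0 of 23 reads, where at most 4 could be B6. Mageb had 13.0%, 8.40% and 15.6%, of at most 52.7%, 33.3% and 35.0%. Magea had 20.8%, 13.7% and 20.7%, of at most 62.7%, 44.2% and 46.3%. Tgif2lx had 31.7%, 24.6% and 26.2%, of at most 73.8%, 54.1% and 60%. The start of Cldn34c1 had 29.8% (21.2% to 39.6%), 45.3% (37.8% to 53.1%) and 41.5% (32.7% to 50.7%), of at most 66.3%, 83.7% and 75.6%.

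**Figure D5:**
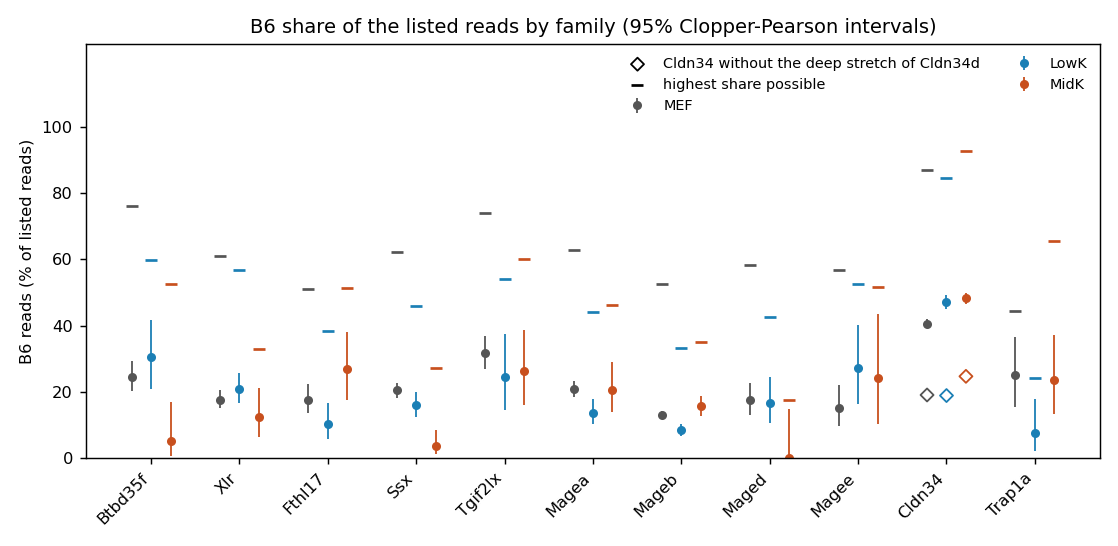
Share of listed reads with the B6 base in percent (vertical axis) by family (horizontal axis), 1 point per library with exact 95% Clopper-Pearson intervals, for 11 of the 14 families. Short dashes mark the highest share that the listing allows, which differs between libraries and is not part of the intervals. Diamonds give Cldn34 without the deep stretch of Cldn34d, which takes MEF from 40.5% to 19.0%, LowK from 47.1% to 18.9% and MidK from 48.3% to 24.7%.

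Sites where both alleles had 2 reads or more are less bound to the variant base. The variant base outnumbered B6 at 50.4% of 133 untied MEF sites of the members (41.6% to 59.2%). The same measure gave 39.4% of 33 LowK sites (22.9% to 57.9%) and 31.8% of 22 MidK sites (13.9% to 54.9%). In the rest of the chromosome it was 48.4% of 11421, 45.4% of 1794 and 23.2% of 3035. The member interval held the value of the rest in each library, so no difference was detectable at this number of sites. Of 1826 LowK sites in member windows, 359 (19.7%) were also listed in MEF, 98.1% of them with the same variant base, against 20.3% and 99.8% in the rest. Of 1015 MidK sites, 18.4% were also listed in MEF and 12.7% in LowK, against 16.6% and 9.50%. Of the 129 shared with LowK, 63 lay in Cldn34 windows, while 2 of 97 Ssx sites and 2 of 65 Magea sites were shared. At least 29 of these 63 lay in the deep stretch of Cldn34d, so the member share depends in part on that stretch. No test was made of these shares.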

How the data were processed

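LSD1 chromatin was sequenced from 3 mouse samples (MEF, LowK and MidK, grouped by their titles), 1 library each. Per the submitters' processing notes, the aligner was BWA and the build mm10, and variants were called with bcftools mpileup by allele, per the series' design text. Tool versions, and whether duplicates were removed, were not given in the sources used here. Per the file headers, the deposited counts are the depth and the reads with the B6 and the variant base at each listed position of chromosome X. Reliability, a deposited score per the file headers, was used in 1 alternative only.

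Single-base entries were kept, and genes were placed by RefSeq positions of assembly GRCm38.p6. The B6 base matched the RefSeq promoter sequence at 2444 of 2444 bases checked. Reads over each gene body plus 5 kb on both sides were compared relative to the median gene of chromosome X, among genes with at least 30 reads in 1 library of the pair. A call needs a 2-fold difference and exact 95% Poisson intervals that do not overlap. Promoter identity came from global alignments (Biopython 1.88), and intervals from scipy 1.17.1 under Python 3.11.15. The scripts were tested on simulated data. For each comparison the called members with the 8 highest and 8 lowest ratios were named, with the member with the most reads of each family and Trap1a. The others named, such as Cldn34b1, Xlr4a, Ssxb8 and Fthl17f, were chosen after their values were seen. The members and lists were chosen with earlier results of these data known. Per count comparison 11 alternatives were run, and for the variant majority 5.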

Additional observations from a re-analysis of the deposited data

Results flagged for a closer look

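Reads with neither the B6 nor the variant base, which the comparisons leave out, numbered 892 in the member windows in MEF, 321 in LowK and 442 in MidK, above the limit of 3 that a count of 0 allows. They made up 6.25%, 6.31% and 8.45% of the depth there, against 3.41%, 2.88% and 3.95% in the rest of the chromosome. The deep stretch of Cldn34d held 576, 210 and 380 of them. Insertion or deletion entries, which were also left out, numbered 222 in MEF, 88 in LowK and 43 in MidK in these windows, again above that limit. There were no control libraries to set these values against.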

How the results depend on the processing

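Counts of called members changed with how sites were counted. With 1 site per 300 bp, each counted once, 0 members were called in any comparison (of 9, 9 and 3 tested). Of all genes tested there, 0% were higher in each comparison, and 0.18% of 557, 0% of 556 and 0.56% of 356 were lower. With all reads of these sites, 1 member was higher and 2 lower in LowK over MEF, 3 and 2 in MidK over MEF and 1 and 1 in MidK over LowK. At sites listed in all 3 libraries, with 2 members tested, it was 0 and 1, 0 and 0, and 1 and 0. There 16.7% of 18 genes were lower in LowK over MEF, and 12.5% of 16 were higher in MidK over LowK. With library totals, 27 of 56 members were lower in MidK over MEF, beside 21.3% of 1080 genes. In MidK over LowK, 3 of 38 were higher and 15 lower, beside 2.65% and 29.1% of 906 genes. In LowK over MEF without the deepest 1% of sites, 1 of 55 members was higher, beside 6.69% of 1076 genes. With sites in 1 gene window only, 1 of 49 was higher (8.92% of 886 genes). With variant reads only, 1 of 55 was (5.53% of 1066). At a minimum of 10 reads 5 of 68 were higher, beside 7.39% of 1123 genes. Over gene bodies 6 of 36 were lower, beside 6.61% of 817. A reliability of at least 20 gave 10 higher of 47 members in MidK over MEF and 5 lower of 14 in MidK over LowK, where 16.6% of 1011 and 17.4% of 628 genes were called. In MidK over LowK, 4 of 15 were lower over gene bodies, beside 14.3% of 607 genes. With variant reads only, 4 of 31 were lower there, beside 10.2% of 862. Without the deep stretch of Cldn34d, a choice made after seeing the data, the Cldn34 ratios were 1.05, 1.68 and 1.63. The cause was not tested, except that thinning and shared sites leave fewer genes to test.

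These log2 ratios of called members changed sign. At sites listed in all 3 libraries, Trap1a was at -0.16 (LowK over MEF), Cldn34d at -0.35 (MidK over MEF) and Magea4 at 0.56 (MidK over LowK). With 1 site per 300 bp, Cldn34c1 in LowK over MEF was at -0.0335 with all reads and at -0.11 with each site counted once. With each counted once, Btbd35f25 was at 0.0762, Maged1 at 0.19 and Xlr5c at 0.34 in MidK over MEF, and Magea3 at 0.0865 and Trap1a at -0.65 in MidK over LowK. Magea10 was at -0.25 over gene bodies (MidK over MEF), and Magea4 at 1.46 with sites in 1 gene window only (MidK over LowK). Cldn34d in LowK over MEF, with no call at 0.24, was at -1.75 and called lower at sites listed in all 3 libraries. Of 375 values of called members under alternatives, 246 kept the call, 117 lost it in the same direction and 12 changed sign. Of 495 values of named members with no call, 31 gained a call in the same direction and 1 in the other, 381 kept their sign and 82 changed it with no call. Members at 0 reads in 1 library of a pair have no alternative value. The variant majority stayed within its interval under every alternative run.

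No paired analysis was possible because each group holds 1 library. Depth limits the tests: 43 of 99 members had under 30 MEF reads, 64 under 30 LowK reads and 83 under 30 MidK reads.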
